A study of Homo sapiens with 4 samples.

Results

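S100 proteins are small calcium-binding proteins, and 8 of their genes were followed here in LNCaP cells with and without a CRYM expression plasmid: S100P, S100A11, S100A10, S100A2, S100A6, S100A16, S100A14 and S100A13. They were chosen by family name around S100P, with the CRYM minus empty vector differences of these libraries already known, so those differences describe the genes and are not independent evidence. In each library a gene was the row that carries its symbol, or else the row whose span best overlaps the hg19 span of the gene. The 8 genes are 8 of the 52318 loci listed in all 4 libraries, and 5 of the 8 were among the 10091 loci abundant enough to be tested. Of the 32 pairs of a gene and a library, 16 were found by symbol and 15 by span, and 1 had no row by that rule.

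LNCaP is an androgen-responsive human prostate cancer line that was established from a lymph node metastasis. RNA was sequenced from 2 libraries of cells given a plasmid with the CRYM open reading frame and 2 libraries of cells given the matching empty plasmid. The product of CRYM is mu-crystallin, which holds thyroid hormone in the cytosol. All cells were at passage 22, were grown with 10% fetal calf serum, and were harvested 48 h after lipofection of 2500 ng plasmid carried by 12 µL of reagent. The transfection was transient, so each library holds RNA of cells that took up plasmid and of cells that did not. Neither the share of each nor the promoter that drives CRYM is given in the sources used here. The labels call the libraries biological replicates without saying whether the cultures were separate, and the p-values cover only the spread between these 4 libraries.

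An S100 protein usually works as a dimer. Calcium binding at its EF-hands opens a surface that grips a partner protein, such as an annexin, ezrin or p53. Several S100 proteins are also released and act on the receptor RAGE, and members of the family are often altered in carcinoma. Most S100 genes lie side by side at 1q21, next to the genes of the epidermal differentiation complex, whereas S100P lies alone on chromosome 4.

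The unit throughout is FPKM (fragments per kilobase, scaled to the fragments mapped in a library), which the authors deposited for each library. Being per length, it allows a rough comparison between genes, but values at very short loci run high. At loci of 60 bp, 1 read alone gave 1613 to 2204 FPKM across the libraries. The CRYM locus (hg19 chr16:21250195-21314404, unnamed in the files and placed by its neighbours) had 65.3 and 72.5 FPKM in CRYM libraries, against 1.17 and 0.977 FPKM in empty vector libraries. It was therefore high in both libraries labelled CRYM, with a log2 difference of 5.07 (SE 0.0867, limma adjusted p = 0.00253). The ratio of mean FPKM was 64.1, while fragments implied by the deposited intervals gave 32.5 at equal depth. Why these ratios differ was not tested. Of 8 luminal prostate markers, the files place only HOXB13, which had 110.3 and 114.1 FPKM in CRYM libraries and 128.4 and 127.7 FPKM in empty vector libraries. HOXB13 passed as lower (log2 difference -0.19, limma adjusted p = 0.0275), but its implied fragments at equal depth were at 1.12 of the empty vector level. The call was lost without the filter on low FPKM (limma adjusted p = 0.0639). It was also lost with a common total FPKM over the joined loci (0.266) and with quantile normalization (0.362). None of the 5 basal and none of the 5 fibroblast markers had a locus that could be named, so those cells could not be checked for. Of the immune markers the files place HLA-DRA, with 1.95 and 1.56 FPKM in CRYM libraries and 2.40 and 2.29 FPKM in empty vector libraries, and the endothelial CLDN5 and neuroendocrine INSM1 were at most 0.275 and 0.0138 FPKM. Relative to empty vector library 1, depth was 0.842 and 1.07 in CRYM libraries 1 and 2 and 1.15 in empty vector library 2, while absolute depth is unknown.

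The main result is unequal behaviour within the family. S100P fell to 12.7 ± 0.968 FPKM in CRYM cells, against 40.9 ± 2.11 FPKM in empty vector cells (mean ± SD, n = 2 each). S100A11, the most abundant of the 8, fell 1.33-fold in FPKM, and S100A2, a low-level gene, rose 1.64-fold. S100A11 and S100A2 passed, but neither did with a common total FPKM over the joined loci (limma adjusted p = 0.0601 and 0.0622). S100P still passed there (limma adjusted p = 0.0160). In fragments implied by the deposited intervals, at equal depth, S100A11 was at 0.984 of the empty vector level. S100A6 and S100A10 did not pass the test, S100A16 and S100A14 were below the level for testing, and S100A13 was listed at 0. Of the 5 tested genes 3 passed, 1 higher and 2 lower, where 33.3% of all tested loci passed, 15.7% higher and 17.7% lower. The groups did not overlap at 3 of the 5, 1 with CRYM above and 2 with CRYM below, against 72.2% of all tested loci, 37.0% above and 35.3% below. The median log2 difference of the 5 was 0.09, beside 0.01 over all tested loci.

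**Figure D1:**
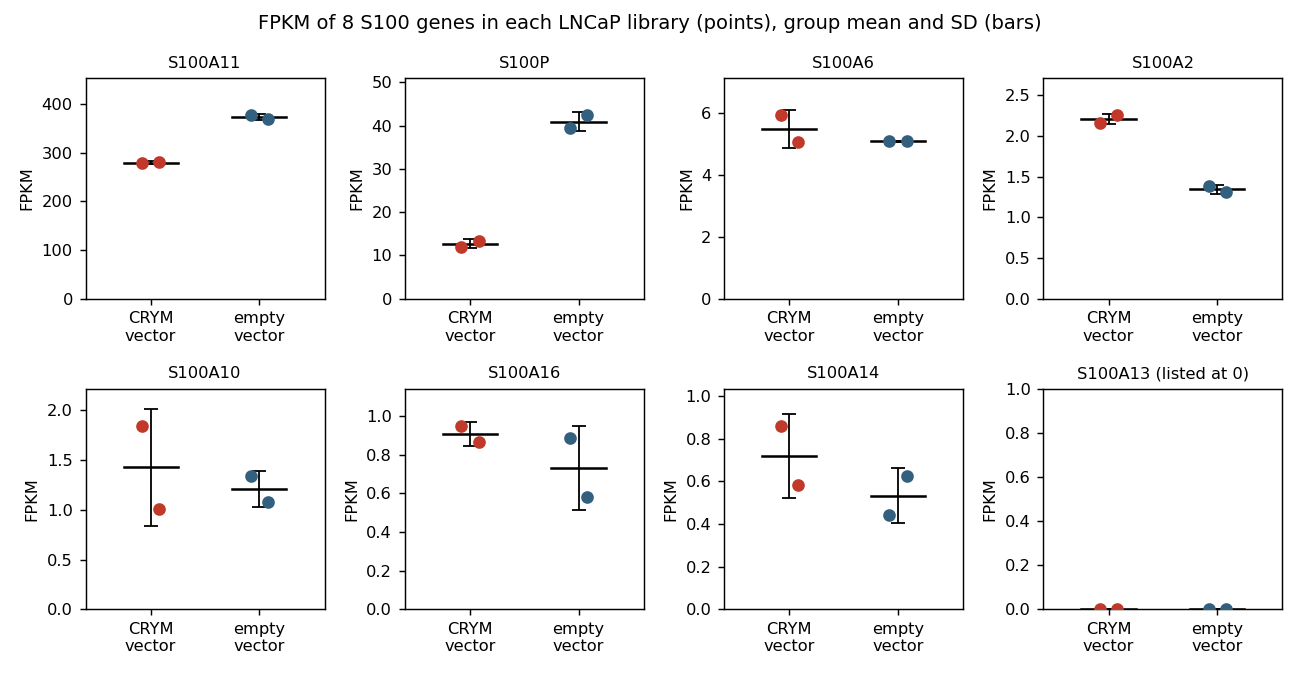
FPKM of each S100 gene in each library, with CRYM vector on the left and empty vector on the right of every panel; points are libraries, the long bar is the group mean and the error bars are 1 SD (n = 2), and each panel has its own linear axis from 0. S100P and S100A11 lie lower in both CRYM libraries, S100A2 lies higher in both, and the groups overlap for S100A6, S100A10, S100A16 and S100A14.

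S100P, first isolated from placenta, binds ezrin and is a secreted ligand of RAGE. It lies at hg19 chr4:6694796-6698897, a locus of 4102 bp with the biotype protein_coding, and every library lists it by symbol. The 250 bases before its RefSeq start are shown because S100P has the greatest fold of the 8 genes, beside those of S100A11, the most abundant. Both come from the RefSeq promoter table of GRCh38.p14, a different build from that of the files. The RefSeq starts were not matched to the ends of the measured loci, so a window need not flank its locus. They run 5′ to 3′ on the gene's strand, at GRCh38.p14 chr4:6693628-6693877 (plus strand) for S100P and chr1:152037005-152037254 (minus strand) for S100A11. Capitals mark TATAAA, the TATA box, in S100P and GGGCGG, the GC box bound by SP1, in S100A11.
S100P: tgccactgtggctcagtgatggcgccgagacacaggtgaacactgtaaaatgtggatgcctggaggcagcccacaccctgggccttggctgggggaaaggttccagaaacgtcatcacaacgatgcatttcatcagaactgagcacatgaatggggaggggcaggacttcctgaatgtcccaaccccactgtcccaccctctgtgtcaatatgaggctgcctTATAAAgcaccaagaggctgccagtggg
S100A11: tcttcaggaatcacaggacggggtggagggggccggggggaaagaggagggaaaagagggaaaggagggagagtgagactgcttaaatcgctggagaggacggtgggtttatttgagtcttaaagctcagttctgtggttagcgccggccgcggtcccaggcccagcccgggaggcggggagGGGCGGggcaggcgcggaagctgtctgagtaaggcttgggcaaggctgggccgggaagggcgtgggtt
The TATA box of S100P begins 28 bases before the start, and the GC box of S100A11 begins 68 bases before it. All 8 genes had an entry in the table, with 12 promoters in all. Searched on both strands, TATAAA was found in 2 of the 12 (S100P and a promoter of S100A13) and in 10.7% of 35116 promoters. GGGCGG was found in 5 of the 12 and in 42.6% of all promoters, and TGACTCA, the AP-1 site, in 1 of the 12 (S100A2) and in 4.20%. AGAACA, a hexamer of androgen and glucocorticoid receptor elements, and AGGTCA, a hexamer of thyroid hormone receptor elements, were in none of the 12, against 12.4% and 12.1% of all promoters. These matches describe letters in a window, and a window without a match says nothing of the factor.

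S100P had 12.0 and 13.4 FPKM in CRYM libraries 1 and 2, against 39.4 and 42.4 FPKM in empty vector libraries 1 and 2. Both CRYM libraries were far below both empty vector libraries, and the deposited intervals, 9.49 to 14.6 and 11.04 to 15.8 FPKM in CRYM against 35.1 to 43.7 and 38.3 to 46.6 FPKM in empty vector, do not touch. The mean was 3.22-fold lower in CRYM cells, a log2 difference of -1.61 on the log2(FPKM + 1) scale (SE 0.0756, limma adjusted p = 0.00627). Only 1.65% of tested loci had a difference as low or lower. Read as 2 SD of counting error in either direction, the intervals imply 89 and 129 fragments in CRYM libraries and 337 and 418 in empty vector libraries. At equal depth that is 0.323 of the empty vector level, close to the FPKM ratio of 0.311. Fewer cells with S100P RNA and less of it per cell cannot be told apart in these bulk libraries, here and for the other genes. With any 1 library left out, which leaves 1 residual degree of freedom, the difference stayed between -1.68 and -1.54 but limma's adjusted p was 0.0670 to 0.0729, and no locus passed.

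**Figure D2:**
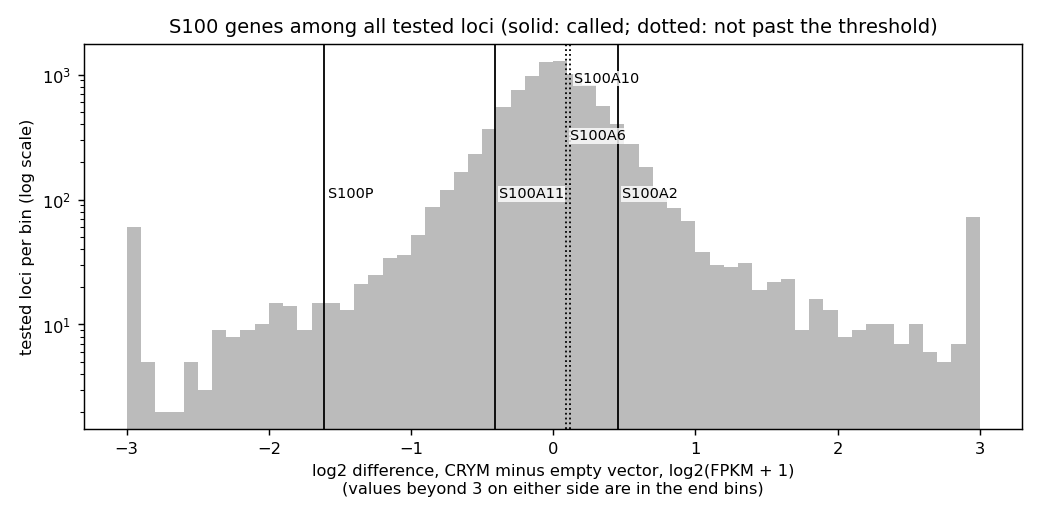
Histogram of the log2 differences (CRYM minus empty vector) of all tested loci, in bins of 0.1 with the number of loci on a log axis, and vertical lines at the 5 tested S100 genes, solid where the adjusted p was under 0.05. S100P, at -1.61, lies in the lower tail, and S100A11 (-0.41) and S100A2 (0.45) lie on the shoulders on either side.

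The annexin partners S100A11 and S100A10 lie next to each other at 1q21. S100A11, which binds annexin A1 and takes part in membrane repair and growth control, had 278.3 and 281.6 FPKM in CRYM libraries, against 377.4 and 368.5 FPKM in empty vector libraries. Both CRYM libraries were lower, with no overlap. The fall was 1.33-fold, a log2 difference of -0.41 (SE 0.0243, limma adjusted p = 0.00796), and 12.7% of tested loci were as low or lower. The implied fragments differed less: 2839 and 3066 in CRYM libraries and 3352 and 3435 in empty vector libraries give a ratio of 0.984 at equal depth, where the FPKM ratio was 0.751. Why these ratios differ was not tested. When each library was rescaled to the same total FPKM over the joined loci, S100A11 no longer passed, at a log2 difference of -0.38 (limma adjusted p = 0.0601). With quantile normalization the difference was -0.26 (limma adjusted p = 0.0254), and with a common total over all rows of each table, a scaling that moves the median of all tested loci by -0.53, it was -1.02 (limma adjusted p = 0.00316).

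The row used for S100A11 is at hg19 chr1:152004982-152020383, is 15402 bp long and reaches beyond the gene span of the rule, with an overlap over union of 0.292. In 3 libraries it carries the symbol. In CRYM library 1 it has no symbol and falls short of the overlap of 0.4 that the rule asks for, so its value there was taken at the identical position. This is the closest row outside the limit, and the lowest overlap accepted inside it was 0.885, at S100A2. By the letter of the rule S100A11 has no value in CRYM library 1, and without that library its log2 difference was -0.40. No locus passed in that fit, so its p does not bear on the row.

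S100A10 (p11), the partner of annexin A2 and a family member that no longer binds calcium, lies at hg19 chr1:151955391-151966866. It had 1.84 and 1.01 FPKM in CRYM libraries, against 1.34 and 1.08 FPKM in empty vector libraries. The CRYM libraries were the highest and the lowest of the 4, so the groups overlapped. The log2 difference was 0.12 (SE 0.220, limma adjusted p = 0.726), it turned negative with quantile normalization (-0.07), without CRYM library 1 (-0.13) and with a common total over all rows of each table (-0.23). In all 27 to 41 fragments per library were implied.

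S100A2, a mainly nuclear protein that binds p53 and is typical of basal epithelial cells, lies at hg19 chr1:153533584-153540366. It had 2.16 and 2.25 FPKM in CRYM libraries, against 1.38 and 1.30 FPKM in empty vector libraries. Both CRYM libraries were higher, with no overlap. The rise was 1.64-fold, a log2 difference of 0.45 (SE 0.0613, limma adjusted p = 0.0240), and 12.7% of tested loci were as high or higher. The implied fragments were 40 and 62 in CRYM libraries and 33 and 37 in empty vector libraries, a ratio of 1.62 at equal depth beside an FPKM ratio of 1.64. The call was lost at an unchanged difference of 0.45 without the filter on low FPKM (limma adjusted p = 0.108) and at 0.47 with a common total over the joined loci (limma adjusted p = 0.0622). It was also lost at 0.30 with quantile normalization (limma adjusted p = 0.0603) and at 0.07 with a common total over all rows (limma adjusted p = 0.494).

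S100A6 (calcyclin), which binds the calcyclin-binding protein and is raised in proliferating cells, lies at hg19 chr1:153507075-153508720. It had 5.92 and 5.05 FPKM in CRYM libraries, against 5.09 and 5.07 FPKM in empty vector libraries. CRYM library 1 was the highest of the 4 and CRYM library 2 the lowest, so the groups overlapped. The log2 difference was 0.09 (SE 0.0878, limma adjusted p = 0.490), and it turned to -0.01 with quantile normalization, to -0.0073 without CRYM library 1 and to -0.42 with a common total over all rows (limma adjusted p = 0.0201). The implied fragments were 161 and 173 in CRYM libraries and 161 and 195 in empty vector libraries. The antisense gene BX470102.3, which overlaps S100A6, was listed at 0 in all 4 libraries.

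**Figure D3:**
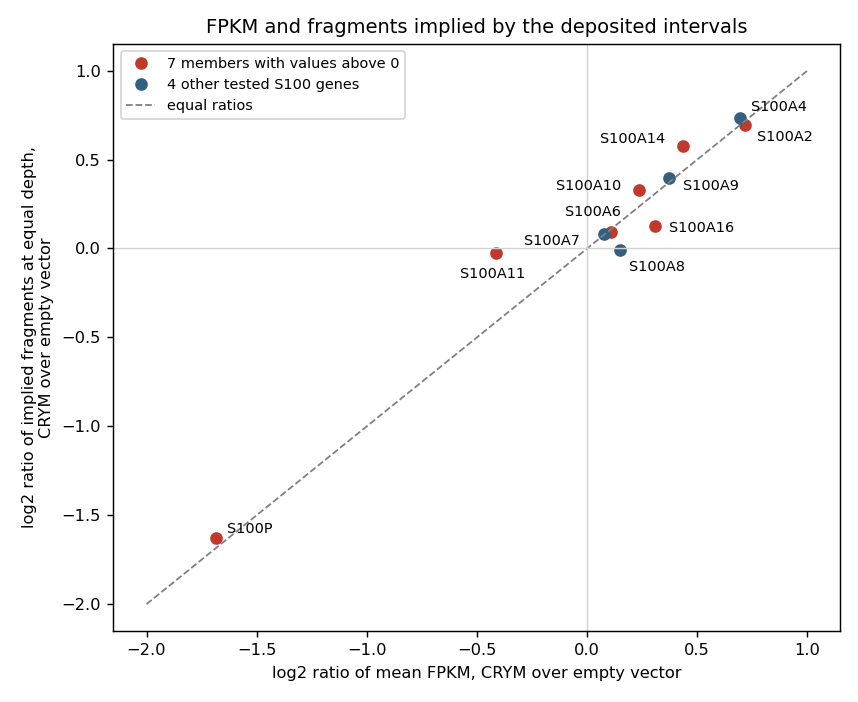
Log2 ratio of CRYM over empty vector in mean FPKM (x axis) and in implied fragments at equal depth (y axis) for the 7 S100 genes of the family group with values above 0 and the 4 other tested S100 genes; the dashed line marks equal ratios. S100P (0.311 in FPKM and 0.323 in implied fragments) and S100A2 (1.64 and 1.62) lie close to the line, and S100A11 (0.751 and 0.984) lies off it, near 0 on the y axis.

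S100A16 and S100A14 are epithelial family members that lie next to each other at hg19 chr1:153579362-153585621 and chr1:153586731-153589462. S100A16 had 0.950 and 0.865 FPKM in CRYM libraries, against 0.888 and 0.580 FPKM in empty vector libraries, and S100A14 had 0.861 and 0.581 FPKM in CRYM libraries, against 0.442 and 0.624 FPKM in empty vector libraries. The groups overlapped at both genes. The implied fragments of S100A16 were 51 and 61 in CRYM libraries and 66 and 48 in empty vector libraries, and those of S100A14 were 22 and 36 in CRYM libraries and 21 and 22 in empty vector libraries. Both genes stayed under the level of 1 FPKM in 2 libraries that testing asked for. In a fit without that filter their log2 differences were 0.14 and 0.16, with limma adjusted p-values of 0.613 and 0.567.

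S100A13, which helps export FGF1 and interleukin 1 alpha from the cell by a route outside the secretory pathway, lies at hg19 chr1:153591263-153606873. It was listed at 0 in all 4 libraries. Short unnamed rows inside its span nonetheless held 4.01 to 33.1 FPKM at 5 positions in CRYM libraries and 77.2 FPKM at 1 position in empty vector library 1, from 11 to 47 implied fragments each, and no such row was listed in empty vector library 2. An unnamed locus that overlaps its end (chr1:153606525-153618782) had 64.5 and 68.7 FPKM in CRYM libraries and 61.97 and 62.1 FPKM in empty vector libraries. Of the 2 unnamed loci that start between S100A13 and SNAPIN it is the right-hand one, and the RefSeq order there is S100A1, then CHTOP. How much of the RNA in these overlapping rows belongs to S100A13 was not tested, so the listed 0 is given as listed.

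The order of levels was the same in both groups: S100A11, S100P, S100A6, S100A2, S100A10, S100A16, S100A14, and S100A13 at 0. Between neighbours, the values of the libraries did not overlap in CRYM cells, whereas in empty vector cells S100A2 overlapped S100A10, and S100A16 overlapped S100A14. In CRYM cells the lower S100A16 value, 0.865 FPKM, was close to the higher S100A14 value, 0.861 FPKM, and the deposited intervals of these genes overlapped. Those of S100A2 and S100A10 also overlapped in CRYM library 1, at 1.48 to 2.84 and 1.27 to 2.41 FPKM. S100A11 exceeded S100P 22.0-fold in CRYM cells, against 9.11-fold in empty vector cells, and S100P exceeded S100A6 2.32-fold in CRYM cells, against 8.05-fold in empty vector cells. In empty vector cells S100A11 was above 98.0% of tested loci in mean FPKM, S100P above 80.7%, S100A6 above 31.5%, S100A2 above 9.06% and S100A10 above 7.59%. The 8 genes together summed to 302.1 and 304.8 FPKM in CRYM libraries, against 425.9 and 419.5 FPKM in empty vector libraries. S100A11 made up 92.1% and 92.4% of that sum in CRYM libraries and 88.6% and 87.8% in empty vector libraries.

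Of 12 other S100 genes, 10 had a locus and 4 were tested, of which 2 rose, none fell and 2 did not pass, where 15.7% of all tested loci rose and 17.7% fell. S100A9, a subunit of calprotectin that neutrophils release, had 3.85 and 3.59 FPKM in CRYM libraries, against 2.83 and 2.92 FPKM in empty vector libraries (log2 difference 0.28, SE 0.0581, limma adjusted p = 0.0479). S100A4, a metastasis-associated member that binds non-muscle myosin, had 2.92 and 2.56 FPKM in CRYM libraries, against 1.81 and 1.57 FPKM in empty vector libraries (0.47, SE 0.0919, limma adjusted p = 0.0435). Both CRYM libraries were higher at both genes, and both calls were lost without the filter on low FPKM, with quantile normalization and with either common total. The log2 differences were then unchanged without the filter and, with a common total over the joined loci, 0.31 at S100A9 and 0.49 at S100A4. With quantile normalization they were 0.15 at S100A9 and 0.31 at S100A4, and with a common total over all rows -0.18 at S100A9 and 0.06 at S100A4. The S100A4 locus (hg19 chr1:153516089-153522612) carries no symbol, was placed by its neighbours in the RefSeq order, and contains the S100A3 locus, which was at most 0.0307 FPKM.

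S100A7 (psoriasin) stood, in mean FPKM, above S100P in CRYM cells and below it in empty vector cells. Its locus (hg19 chr1:153430220-153433177, placed the same way) had 18.3 and 16.8 FPKM in CRYM libraries, against 15.9 and 17.4 FPKM in empty vector libraries. The groups overlapped (log2 difference 0.07, limma adjusted p = 0.507, and -0.50 with a common total over all rows). S100A8, the other calprotectin subunit, had 1.58 and 0.922 FPKM in CRYM libraries, against 0.985 and 1.27 FPKM in empty vector libraries, which also overlap (0.07, limma adjusted p = 0.825). The 6 other S100 genes with a locus were below the level for testing, with a highest value of 0.688 FPKM, and S100Z was listed at 0 throughout.

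The partners of these proteins could hardly be read from the files: of 28 binding partners and receptors only IL1A had a locus on a main chromosome, at most 0.0470 FPKM, and the RAGE gene AGER was listed only on alternative haplotypes, at 0. Of 29 other EF-hand genes 5 had a locus and 1 was tested. That was MYL12B, a regulatory light chain of myosin, with 162.6 and 159.3 FPKM in CRYM libraries, against 199.8 and 196.3 FPKM in empty vector libraries. Both CRYM libraries were lower (log2 difference -0.30, SE 0.0245, limma adjusted p = 0.0120), while its implied fragments at equal depth were at 1.02 of the empty vector level. MYL12B no longer passed with a common total over the joined loci (-0.27, limma adjusted p = 0.0771). With quantile normalization its difference was -0.13 (limma adjusted p = 0.0478).

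On chromosome 4 the nearest tested and named neighbours of S100P did not pass. BLOC1S4, 18.9 kb to the right and a subunit of a complex that builds lysosome-related organelles, had 13.4 and 13.4 FPKM in CRYM libraries, against 14.4 and 14.5 FPKM in empty vector libraries (log2 difference -0.11, limma adjusted p = 0.0847). ADRA2C, an adrenergic receptor 2925 kb to the left, had 0.879 and 0.815 FPKM in CRYM libraries, against 1.12 and 1.08 FPKM in empty vector libraries (-0.19, limma adjusted p = 0.138). Both were lower in both CRYM libraries, 1.08-fold at BLOC1S4 and 1.30-fold at ADRA2C, beside 3.22-fold at S100P.

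The other 7 genes lie in the 1q21 stretch that runs from S100A10 to SNAPIN. It holds 87 loci, of which 31 were at 0 in all libraries and 11 were tested, with 3 higher, 2 lower and 6 that did not pass, where 15.7% of all tested loci were called higher and 17.7% lower. C2CD4D, the nearest tested named locus left of S100A10, had 1.502 and 1.29 FPKM in CRYM libraries, against 1.07 and 1.19 FPKM in empty vector libraries (limma adjusted p = 0.233). SNAPIN, a SNARE-associated protein at the right end, had 49.9 and 49.7 FPKM in CRYM libraries, against 51.5 and 51.4 FPKM in empty vector libraries (limma adjusted p = 0.213). The lincRNA RP11-107M16.2 (hg19 chr1:152178334-152179533), 158 kb right of S100A11, had 0.427 and 0.409 FPKM in CRYM libraries, against 10.5 and 11.1 FPKM in empty vector libraries. It was 25.8-fold lower in CRYM cells (log2 difference -3.05, SE 0.0558, limma adjusted p = 0.00253), the other called fall of the stretch beside S100A11. A list of 40 genes of the epidermal differentiation complex and its flanks, outside the S100 family, had a locus for 33. Of these, 32 were not tested, 8 of them at 0 throughout, and the tested locus was the flanking gene SNAPIN, so no gene of the complex itself outside the S100 family was tested.

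**Figure D4:**
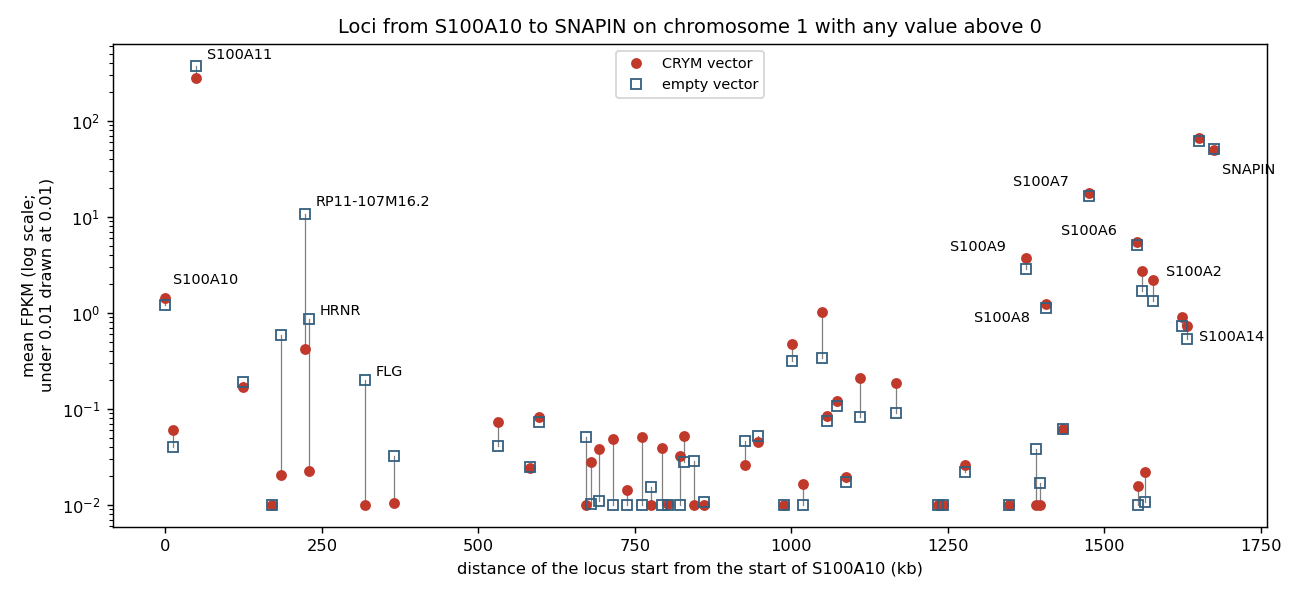
Mean FPKM (log axis, values under 0.01 drawn at 0.01) of each 1q21 locus with a value above 0, by the distance of its start from the start of S100A10 in kb; filled circles are CRYM vector, open squares are empty vector and lines join the 2 means of a locus. The S100 genes at the right end have joined means close together, and RP11-107M16.2, HRNR and FLG have lower means in CRYM cells.

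The protein-coding loci with a profile nearest to S100P over the 4 libraries were sought among 795 named candidates by Euclidean distance of log2(FPKM + 1) values after centring each locus. NPPC, which encodes C-type natriuretic peptide, was nearest at 0.179, with 0.279 and 0.341 FPKM in CRYM libraries, against 2.43 and 2.68 FPKM in empty vector libraries. AC079354.2 (0.268) and GPRIN1 (0.298) were listed at 0 in both CRYM libraries and had 1.71 and 1.57 FPKM and 1.59 and 1.51 FPKM in empty vector libraries. FAM43A (0.320) had 9.11 and 9.66 FPKM in CRYM libraries, against 23.9 and 25.2 FPKM in empty vector libraries, and RASD1 (0.339), a Ras-like protein induced by glucocorticoid, had 2.58 and 2.93 FPKM, against 7.95 and 8.22 FPKM. AC079354.2 rests on 1 implied fragment in each empty vector library, and GPRIN1 on 504 and 545. A listed 0 can stand beside reads in these files, as at S100A13, so neither 0 is read as a lower level. NPPC, FAM43A and RASD1 were lower in both CRYM libraries, as the measure asks for. The ranking was made only at a pseudocount of 1, which understates changes of low genes. In mean FPKM the fall was 8.25-fold at NPPC, 2.61-fold at FAM43A and 2.93-fold at RASD1, beside 3.22-fold at S100P. At a pseudocount of 0.1 the log2 difference was -1.68 at S100P, -2.70 at NPPC, -4.12 at AC079354.2 and -4.045 at GPRIN1. It was then -1.375 at FAM43A and -1.52 at RASD1. The profiles nearest to S100A10 were those of APOE (0.0811), C9orf64 (0.148), MTRNR2L2 (0.163), FAM27D1 (0.178) and COX7B2 (0.190), and at 4 of these 5 the groups overlapped, FAM27D1 being the exception. With 4 libraries such distances describe these libraries only.

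**Figure D5:**
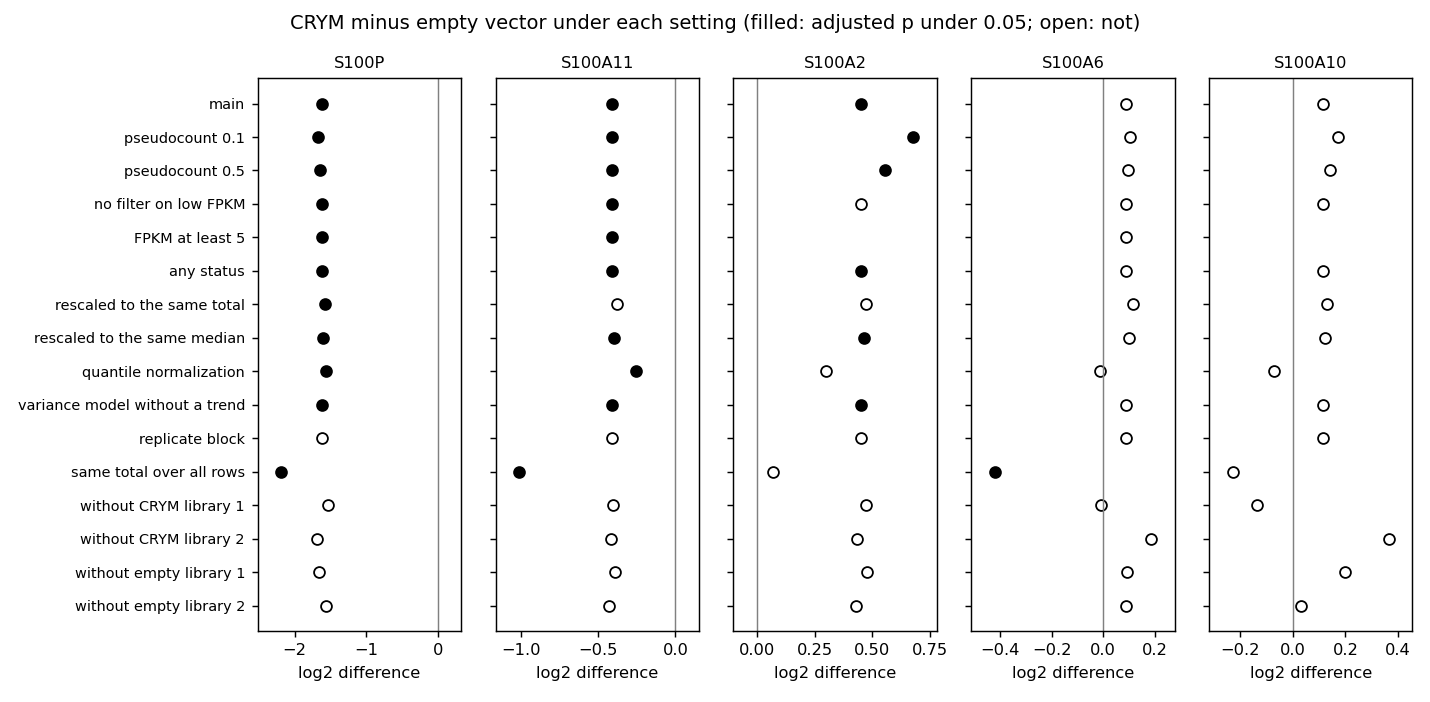
Log2 difference of each tested S100 gene (CRYM minus empty vector) under each processing choice, from the values as reported at the top to the fits without 1 library at the bottom; filled points have a limma adjusted p under 0.05 and open points do not. S100P stays between -2.19 and -1.54 and S100A2 above 0 throughout, S100A6 and S100A10 cross 0, and no point is filled with a replicate block or with 1 library left out.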

How the data were processed

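RNA of 4 libraries (2 of CRYM vector, 2 of empty vector) was measured with a stranded mRNA kit and 50 bp single reads, per the labels' protocols. Per the file headers, the authors deposited FPKM, its interval and a status code. The submitters' processing notes name hg19 and, without roles, Cufflinks 2.2.1, Cuffdiff, Bowtie2 2.2.9 and TopHat2 2.1.1. The sources used here do not say whether counting used the strand. Each library has its own table, and many loci carry only a number given separately in each, so libraries were joined by identical position. Of the joined loci 37712 had a name, but of the 10091 tested loci only 2498 did. S100A4 and S100A7 were placed by their neighbours in the RefSeq order of GRCh38.p14. CRYM was taken as the unnamed joined locus between ANKS4B and another named locus, without the RefSeq order. The members and gene lists were chosen with earlier results of these data known.

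FPKM is not a count, so limma 3.58.1 (R 4.3.3) was run on log2(FPKM + 1), which understates changes of low genes, with a variance trend. P-values are two-sided and were adjusted by Benjamini and Hochberg, at a threshold of 0.05, over all 10091 loci with at least 1 FPKM in at least 2 libraries and status OK in all 4. A fold is a ratio of mean FPKM. Named genes are all members, CRYM, the tested named neighbours, the 5 nearest profiles of S100P and of S100A10 and, of each list, up to 6 members past the threshold and 4 others. Depth was read from values at loci of 60, 61 and 62 bp, where 100.0% were whole multiples (within 0.02) of 1 read. The value of 1 read was itself chosen to make them whole multiples, so that share is no separate check. Absolute depth stays unknown. The intervals are those of single libraries and were read here as counting error only. What else they cover was not tested, so implied fragments are a reading of the intervals and not counts. The replicate numbers were not treated as pairs: deviations of same-numbered libraries correlated at 0.0361. Alternatives covered the pseudocount, filters, status, scaling, variance model, row matching, the replicate block and each library left out; scaling over all rows was added after seeing the data. Python 3.11.15 with pandas 2.3.3 was used for the join.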

Additional observations from a re-analysis of the deposited data

How the results depend on the processing

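With 2 libraries a group, calls near the threshold follow the processing and depth limits the low genes. The tested S100 genes kept direction and call at both other pseudocounts, with any status, without a variance trend and with a common median. Both other matchings of rows kept the same rows for the 8 genes, so they are no check. Counts of all loci called were 788 higher and 1082 lower with no filter, 678 and 623 with a common total over joined loci, and 297 and 6256 with a common total over all rows of each table, a scaling that moves the median of all tested loci by -0.53. The other scalings move it by at most 0.03. With the replicate numbers as a block no locus passed (0 higher, 0 lower, limma), although 3819 had an unadjusted p under 0.05; S100P was then -1.61 and CRYM 5.07, both with limma adjusted p = 0.0569. With each library left out in turn no locus and no S100 gene passed either (0 in each direction, with 3627 to 3815 at an unadjusted p under 0.05), S100P was -1.68 to -1.54 and CRYM 5.0 to 5.15, with limma adjusted p of 0.0550 to 0.0713 for CRYM. The S100 genes called higher came to 0 with no filter, with at least 5 FPKM (where S100A2 is not tested), with quantile normalization, with a common total over joined loci or over all rows, and with the block. Those called lower came to 1 with a common total over joined loci (S100A11 lost) and to 0 with the block. They came to 3 with a common total over all rows, where S100A6 was added.

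Signs turned as follows, the cause not being tested. With quantile normalization the log2 differences were -0.070 for S100A10, -0.012 for S100A6, -0.13 for S100A8, -0.0038 for APOE, -0.10 for C9orf64, -0.16 for COX7B2 and 0.031 for SNAPIN. With a common total over all rows they were -0.23 for S100A10, -0.42 for S100A6, -0.50 for S100A7, -0.26 for S100A8, -0.18 for S100A9, -0.49 for APOE, -0.17 for C2CD4D, -0.23 for C9orf64, -0.35 for COX7B2 and -0.29 for FAM27D1, all above the -0.53 shift of the median. S100A2 was then 0.07 and S100P -2.19. COX7B2 was -0.0040 at a pseudocount of 0.1, and MTRNR2L2 was 0.0052 with a common total over joined loci and 0.00071 with a common median. With 1 library left out, ranges that crossed 0 were -0.13 to 0.37 for S100A10, -0.0073 to 0.19 for S100A6, -0.14 to 0.28 for S100A8, -0.23 to 0.32 for APOE, -0.078 to 0.26 for C9orf64, -0.23 to 0.24 for COX7B2 and -0.24 to 0.23 for MTRNR2L2.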

Other observations

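HRNR and FLG encode hornerin and filaggrin, epidermal proteins of the fused S100 type that carry an S100 domain. HRNR is under the level for testing and FLG is far below it, and both were singled out after their values were seen. HRNR had 0.0186 and 0.0267 FPKM in CRYM libraries, against 0.912 and 0.825 FPKM in empty vector libraries. FLG had 0.00475 and 0.00525 FPKM in CRYM libraries, against 0.193 and 0.208 FPKM in empty vector libraries. Both genes were lower in both CRYM libraries without overlap, and they lie beside RP11-107M16.2. An unnamed locus of 198563 bp that spans them had 0.0210 and 0.0196 FPKM in CRYM libraries, against 0.569 and 0.609 FPKM in empty vector libraries. FLG2, a related gene, had 0.00485 and 0.0160 FPKM in CRYM libraries, against 0.0223 and 0.0419 FPKM in empty vector libraries. SPRR1B, a cornified envelope gene further along, had 1.48 and 0.546 FPKM in CRYM libraries, against 0.339 and 0.342 FPKM in empty vector libraries, but these rest on 4 and 2 implied fragments in CRYM libraries and 1 and 1 in empty vector libraries, too few to give a direction. HRNR had 14 and 26 implied fragments in CRYM libraries, against 843 and 872 in empty vector libraries. Whether the rows of this stretch share reads was not tested.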
